A study of Homo sapiens with 9 samples.

Results

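NOTCH1, NOTCH3, DTX1, HES1, HES4, NRARP, RBPJ, FBXW7, TRIB2 and SHQ1 are 10 genes of the NOTCH pathway or its targets in T-cell leukaemia, of 20037 protein-coding genes on chromosomes 1 to 22, X and Y in the RefSeq table. They were taken by name, and every deposited peak that touched the gene body or the 50 kb to each side was read out. The cells were RPMI-8402, an established human line of T-cell acute lymphoblastic leukaemia, T-ALL for short. An antibody (ab76013) against the homeodomain factor NKX2-1 (also named TTF1) was used for ChIP-seq in 4 NKX2-1 knockout clones (C12, C15, S04 and S36) and 4 clones of the same line that kept NKX2-1, called WT (clones WT10, WT13, WT28 and also WT30). That C12, C15, S04 and S36 are knockouts rests on the series' design text, since their genotype label gives only the name of the gene. A single library was made with an antibody against H3K27ac, a histone acetylation found at active promoters and enhancers. The genotype given for it is likewise NKX2-1, no clone is named, and it has no replicate. The labels do not say how clones relate to each other. Each clone gave 1 library, so the spread between libraries holds clonal and technical differences together.

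NOTCH receptors are cut after ligand binding, and the freed intracellular part enters the nucleus, joins the DNA-binding protein RBPJ and a Mastermind coactivator, and switches on target genes. In developing T cells this signal drives commitment to the T lineage, and activating NOTCH1 mutations are among the most frequent lesions of T-ALL. HES1 and HES4 are repressors of the basic helix-loop-helix family induced by the complex, NRARP and DTX1 are targets that feed back on the pathway, and FBXW7 marks the intracellular part for degradation. TRIB2, a pseudokinase, and SHQ1, a factor for the assembly of small nucleolar ribonucleoproteins, are targets described in leukaemia cells.

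The H3K27ac library held 9857 peaks on these chromosomes, the 4 knockout libraries 810 to 934 and the 4 WT libraries 742 to 1144. Read depth is unknown because the files hold peaks only, so a gene without a peak is a gene without a call at that depth. T-cell identity showed in the H3K27ac calls: 8 of 12 T-cell markers, CD3D, CD3E, CD3G, CD247, LCK, ZAP70, LAT and BCL11B, had a peak within 1 kb of a gene end, against 0 of 5 B-cell, 0 of 5 myeloid and 0 of 5 lung and thyroid markers. CD2, CD5, CD7 and PTCRA had none there, and 19.0% of all protein-coding genes had one.

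The 250 bases before 5 gene starts are shown because H3K27ac lay differently around them and because RBPJ recognises short words of DNA. They are from RefSeq (GRCh38.p14, the assembly named hg38), read 5′ to 3′ along the gene. Capitals mark the RBPJ core TGGGAA and the form TGTGAA found at the partner position of paired sites, on either strand, so that they appear also as TTCCCA and TTCACA.
HES4, chr1:1000098-1000347, minus strand: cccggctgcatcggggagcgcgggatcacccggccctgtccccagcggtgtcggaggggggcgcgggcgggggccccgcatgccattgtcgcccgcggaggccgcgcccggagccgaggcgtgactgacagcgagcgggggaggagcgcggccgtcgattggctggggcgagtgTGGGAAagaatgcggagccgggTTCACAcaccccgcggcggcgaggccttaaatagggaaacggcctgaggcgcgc
HES1, chr3:194135898-194136147, plus strand: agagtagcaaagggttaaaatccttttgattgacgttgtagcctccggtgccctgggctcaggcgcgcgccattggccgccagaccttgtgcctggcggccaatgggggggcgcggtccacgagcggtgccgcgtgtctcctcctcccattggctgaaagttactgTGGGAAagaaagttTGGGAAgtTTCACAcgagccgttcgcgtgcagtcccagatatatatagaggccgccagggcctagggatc
RBPJ, chr4:26319496-26319745, plus strand: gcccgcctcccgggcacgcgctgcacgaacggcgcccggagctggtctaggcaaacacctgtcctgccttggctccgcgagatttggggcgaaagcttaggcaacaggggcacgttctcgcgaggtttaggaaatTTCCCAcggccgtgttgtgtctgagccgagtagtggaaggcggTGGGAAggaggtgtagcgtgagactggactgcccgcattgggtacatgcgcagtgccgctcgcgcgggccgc
NOTCH1, chr9:136546049-136546298, minus strand: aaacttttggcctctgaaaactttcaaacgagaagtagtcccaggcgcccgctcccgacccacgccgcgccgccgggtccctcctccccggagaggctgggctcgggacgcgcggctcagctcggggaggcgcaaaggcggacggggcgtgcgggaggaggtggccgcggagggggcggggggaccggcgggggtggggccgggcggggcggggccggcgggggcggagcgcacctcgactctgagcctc
TRIB2, chr2:12716686-12716935, plus strand: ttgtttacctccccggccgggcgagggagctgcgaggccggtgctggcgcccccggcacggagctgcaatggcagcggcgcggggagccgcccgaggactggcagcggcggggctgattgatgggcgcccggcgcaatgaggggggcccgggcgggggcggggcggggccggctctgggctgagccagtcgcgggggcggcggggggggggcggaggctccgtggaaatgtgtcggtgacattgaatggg

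HES4 and HES1 carried the same arrangement of these words. In HES4, 70 bases separated TGGGAA from the start, and TTCACA followed it after 16 bases. In HES1, 78 bases separated TGGGAA from the start, and TTCACA again followed after 16 bases, with a further TGGGAA lying between them. These are the RBPJ paired sites known from HES-family promoters, in which the sites face each other. Written out, the 28 bases are TGGGAAagaatgcggagccgggTTCACA in HES4 and TGGGAAagaaagttTGGGAAgtTTCACA in HES1. Among 22199 windows of this length before starts of protein-coding genes, 3 (0.0135%) held a TGGGAA and a facing partner with 15 to 17 bases between them, those of HES4, HES1 and ARHGAP22. The spacing was chosen, and ARHGAP22 named, after these sequences were seen.

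TGGGAA alone is common: it occurred on either strand in 20.1% of the 22199 windows and in 3 of the 16 windows listed for 9 of the 10 genes. DTX1 had no entry. Beyond HES4 and HES1 it was found before 1 of the 5 RBPJ starts, at 109 bases before the start on the minus strand and at 66 bases on the plus strand. The RUNX word TGTGGT occurred in 9.36% of all windows and in 0 of the 16. AAGTG, the core of NK2-type homeodomain sites, occurred in 35.5% of all windows and in 4 of the 16, before SHQ1, 1 RBPJ start and 2 FBXW7 starts. A match is a run of letters and not a measured site.

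H3K27ac peaks lay in the windows of 7 of the 10 genes, against 44.8% of all protein-coding genes, and numbered 31 in all. NOTCH1 alone held 19 of them (61.3%) and the other 6 genes with a peak held 1 to 3 each. DTX1, NRARP and FBXW7 held none. The median was 1 peak per gene, against 0 over all protein-coding genes, or 0.847 peaks per 100 kb of window against 0. Of the 31 peaks, 15 touched the gene body, 14 lay upstream and 2 downstream. Their median fold enrichment, the authors' value at the peak summit over background, was 6.42 (range 4.54 to 11.6), and the median over all H3K27ac peaks was 6.19. Their median width was 354 bp (200 to 1624), against 391 bp in the whole file. The median strength was thus close to the file's median, with 19 of the 31 peaks from NOTCH1. NOTCH1 stood apart by number, and HES4 by strength, with 1 peak of 11.6-fold.

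**Figure D1:**
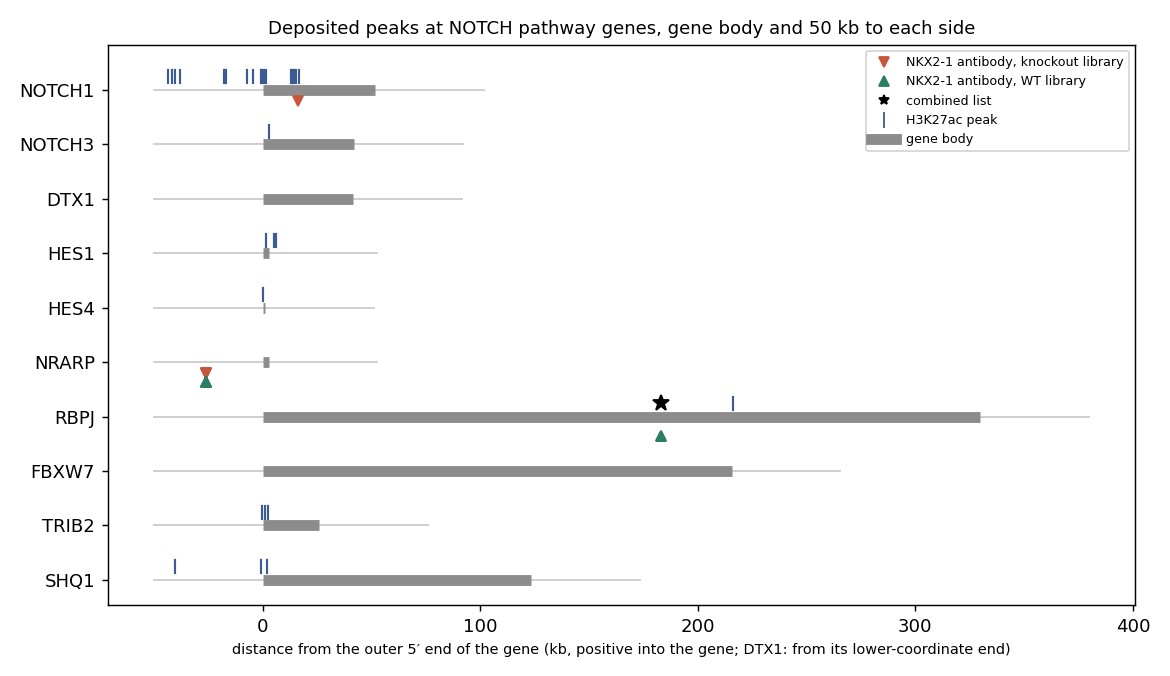
Positions of deposited peaks along each gene, drawn from the outer 5′ end of the gene body (x axis, kb; DTX1 from its lower-coordinate end), with 50 kb to each side as a thin line. Blue ticks are the 31 H3K27ac peaks, red and green triangles NKX2-1 antibody peaks of knockout and WT libraries, and the star the combined-list peak at RBPJ. NOTCH1 holds 19 of the H3K27ac peaks, and NKX2-1 antibody peaks appear at NOTCH1, NRARP and RBPJ.

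**Figure D2:**
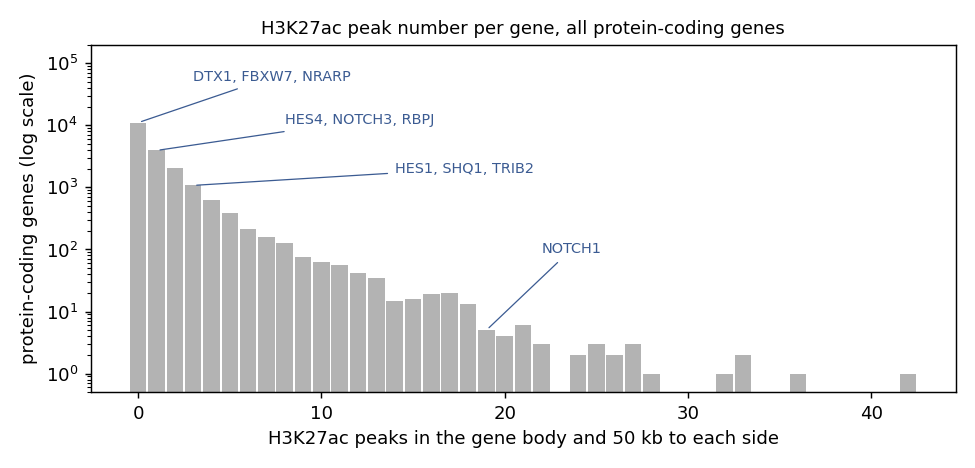
Number of protein-coding genes (y axis, log scale) by the number of H3K27ac peaks in the gene body and 50 kb to each side (x axis). NOTCH1 with 19 peaks lies in the far tail, where 0.17% of genes have as many or more, and the other 9 genes have 0 to 3.

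NOTCH1, the receptor most often mutated in T-ALL (gene ID 4851, chromosome 9, 136494433 to 136546048, minus strand), had 19 H3K27ac peaks covering 9114 bp of its 152.0 kb window. Only 0.17% of protein-coding genes had as many or more peaks in their window, 0.354% had as many per 100 kb and 0.863% had as many bases under peaks. The number depended on the settings: it was 8 in the gene body alone, 12 with 10 kb to each side, 39 with 100 kb to each side, and 0 among peaks with a −log10 q of 10 or more. Calls in narrow-peak format can split a broad acetylated stretch, so the bases covered are given beside the number. The peak summits ran from 16.3 kb inside the gene to -43.6 kb from its start, where negative values are upstream, and none lay downstream of the gene.

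They fell into separate groups along the gene. Inside it, 6 peaks had summits between 12.7 and 16.3 kb from the start, and these included the strongest of the window (136530295 to 136531337, 8.87-fold) and its neighbour (136529022 to 136530043, 8.14-fold). A pair lay just inside the start, at 0.435 kb (6.92-fold) and 1.2 kb (6.19-fold), and another pair just outside it, at -0.547 kb (4.86-fold) and -0.927 kb (5.94-fold). Further upstream were peaks of 8.63-fold at -4.8 kb and 7.9-fold at -6.84 kb. A group of 3 peaks (5.9- to 7.0-fold) followed between -17.0 and -17.9 kb and a group of 4 (4.54- to 8.39-fold) between -38.4 and -43.6 kb. The start itself was bare: the nearest peak base was 192 bp inside the gene.

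**Figure D3:**
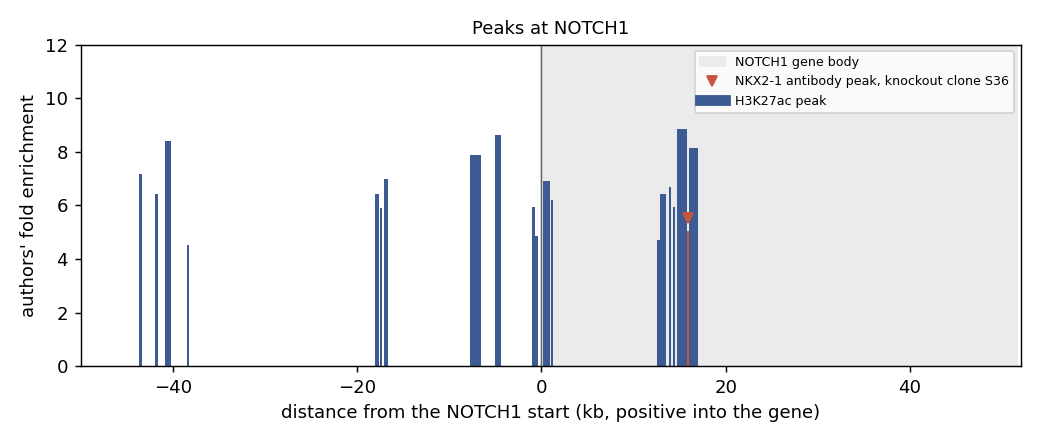
Authors' fold enrichment (y axis) of the 19 H3K27ac peaks (blue) and of the NKX2-1 antibody peak of knockout clone S36 (red, 5.03-fold) against distance from the NOTCH1 start (x axis, kb, positive into the gene); very narrow peaks are drawn at a minimum width. The S36 peak falls between the 2 strongest H3K27ac peaks of the gene body, 8.14- and 8.87-fold.

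NOTCH3, a further receptor whose activated form is found in some T-ALL (gene ID 4854, chromosome 19, 15159038 to 15200995), had 1 H3K27ac peak. It was 215 bp wide and 5.96-fold enriched (15197982 to 15198196) and lay 2.9 kb inside the gene, with its nearest base 2799 bp from the start. No further peak lay in its window. NOTCH1 and NOTCH3 therefore stood at 19 and 1 H3K27ac peaks in windows of 152.0 and 142.0 kb.

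RBPJ, the DNA-binding partner of the NOTCH intracellular part (gene ID 3516, chromosome 4, 26105449 to 26435131, plus strand), had 1 H3K27ac peak in 430.0 kb. It was 260 bp wide and 5.45-fold enriched (26321531 to 26321790) and began 303 bp inside the start at 26321228, 1 of 5 starts listed. The start at 26319746 whose sequence with both TGGGAA matches is given above had no H3K27ac peak within 1 kb of its promoter window. FBXW7, the ubiquitin ligase subunit that removes intracellular NOTCH (gene ID 55294, chromosome 4, 152320544 to 152536092), had none, and its nearest H3K27ac peak lay 206.0 kb from the gene.

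Among target genes, HES4 (gene ID 57801, chromosome 1, 998964 to 1000097, minus strand) had the strongest and widest peak of the 10 genes. It spanned 1624 bp (999170 to 1000793) at 11.6-fold, rank 417 of 9857 by fold enrichment, and covered the whole gene start. The 28 bases of the paired site lie under it. The window of HES4 holds 6 other protein-coding genes, among them ISG15 and AGRN, without a further peak.

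HES1 (gene ID 3280, chromosome 3, 194136148 to 194138732), with the same paired site, had 3 peaks of 258 to 354 bp and 5.21- to 6.19-fold. The first (194137347 to 194137700) began 1199 bp inside the gene, and the others lay 2128 and 3148 bp beyond its end. No peak lay within 1 kb of its promoter window. HES4 and HES1 thus share the arrangement of TGGGAA and TTCACA and differ in these data in where the H3K27ac call lies.

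TRIB2 (gene ID 28951, chromosome 2, 12716936 to 12742734) had 3 peaks, all near its start. One of 393 bp (12716167 to 12716559, 6.43-fold) lay upstream, and those of 1527 bp (12717185 to 12718711, 6.68-fold) and 501 bp (12718912 to 12719412, 5.21-fold) lay in the gene. The start fell in the gap, 249 bp from the nearest peak base. SHQ1 (gene ID 55164, chromosome 3, 72725272 to 72848445) had peaks of 6.89-fold (72848999 to 72849365), 554 bp upstream of its start, and of 5.21-fold inside the gene (72846503 to 72846702). The remaining peak (72888490 to 72888897, 6.19-fold) touched GXYLT2, a neighbouring gene, 40044 bases from SHQ1.

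NRARP, an ankyrin repeat protein that limits NOTCH signalling (gene ID 441478, chromosome 9, 137299631 to 137302271), had no H3K27ac peak, and the nearest one lay 433.0 kb from the gene. DTX1, an E3 ubiquitin ligase of the pathway (gene ID 1840, chromosome 12, 113056730 to 113098025), also had none, with the nearest at 87.0 kb. Both are widely used as readouts of NOTCH activity in T cells.

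A peak lay within 1 kb of a start at 5 of the 10 genes, NOTCH1, HES4, RBPJ, TRIB2 and SHQ1, against 19.5% of all protein-coding genes. By promoter window, the 250 bases before to 50 after a start, 1 of 16 was covered by a peak, that of HES4, against 9.22% of the 22199 windows. NOTCH1 and TRIB2 had an uncovered window with peaks within 1 kb on both sides, an arrangement found at 0.901% of all windows. A further 3 windows had a peak on one side and 10 had none.

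**Figure D4:**
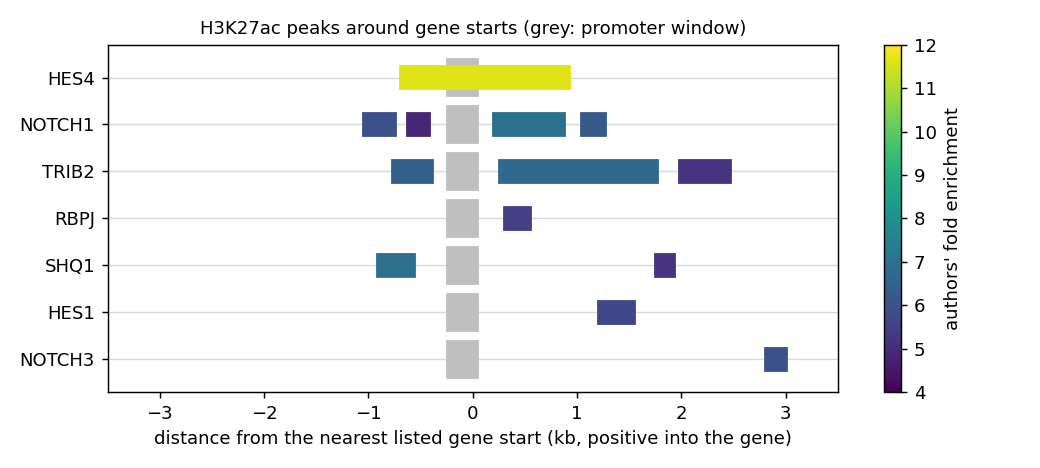
H3K27ac peaks (coloured bars, colour by the authors' fold enrichment) within 3.5 kb of the nearest listed start of each gene (x axis, kb, positive into the gene); the grey block is the promoter window of 300 bases. The HES4 peak of 11.6-fold covers the window, NOTCH1 and TRIB2 have peaks on both sides of it, and HES1 and NOTCH3 have peaks 1199 and 2799 bp inside the gene.

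The comparison the design set was between NKX2-1 antibody peaks of knockout and WT clones. Such peaks were called in the windows of 3 of the 10 genes, NOTCH1, NRARP and RBPJ, against 5.61% of all protein-coding genes with a peak in at least 1 of the 8 libraries. The other 7 genes had no call in any library. NOTCH1 had its calls in knockout libraries only, as did 2.23% of all protein-coding genes, and RBPJ in WT libraries only, as did 2.22%. Calls in 3 or 4 knockout libraries and no WT library (0.175% of all genes), or in 3 or 4 WT libraries and no knockout library (0.265%), were made at 0 of the 10. At the 3 genes with a call, the exact permutation test could not decide whether peak number differed between genotypes. With calls in 1 or 2 of the 8 libraries, or 1 peak in each, no split of clones gives an unadjusted p under 0.05. Over the 1124 protein-coding genes with a peak in any library, 0 (0.0%) passed an adjusted p of 0.05 in the exact permutation test of peak number per library or in Fisher's exact test, and 24 (2.14%) had an unadjusted p under 0.05 in each test. In the permutation test 11 of these (0.979%) were higher in knockout and 13 (1.16%) higher in WT libraries, and none of the 10 genes was among the 24. With 4 clones against 4 the smallest p the permutation test can give is 0.0286, and at least 643 of the 1124 genes would have to reach it before any could pass the adjustment. The 0 is therefore set by the design and says nothing on whether genes differ.

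RBPJ was the one gene of the 10 with a peak in the authors' combined list, which 1.68% of all protein-coding genes had, and with a region of the WT-only list, which 2.4% had. The site lies within the gene body, at -31.3 kb from the RBPJ start at 26319746, and overlaps LOC105374542, an annotated long non-coding RNA. C12, C15, S04 and S36 had no call there, WT13 and WT30 had none either, and WT10 (26288268 to 26288507, 6.71-fold) and WT28 (26288313 to 26288539, 5.4-fold) each had 1. The calls therefore came from 2 WT clones and from no knockout clone.

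The mean number of peaks at RBPJ was 0 in knockout and 0.5 in WT libraries (difference -0.5, two-sided exact permutation p = 0.429, n = 4 each; 1 after Benjamini-Hochberg adjustment over 1124 genes). In the combined list the peak (26288293 to 26288602) was 4.61-fold enriched, rank 78 of 209 by fold enrichment. The WT-only region spans 26288268 to 26288539. Neither list is independent of the calls above: 0 of the 209 combined-list peaks and 0 of the 496 WT-only regions overlapped a peak of any knockout clone, and WT10 peaks overlapped 121 and 367 of them. The descriptions of all 8 NKX2-1 antibody samples, knockout and WT, name the combined list. The sources used here do not say which of these libraries entered its peak calling or what it was called against. The nearest H3K27ac peak is the one at the RBPJ start, 32991 bases from this region, so the site itself carried no H3K27ac call. Just outside the 50 kb limit, knockout clone S36 had a call 57.1 kb from the gene, and with 100 kb to each side the difference was -0.25 (exact permutation p = 1). Calls in WT10 and WT28 alone were found in the windows of 0.384% of all protein-coding genes. Outside the windows of the 10 genes, 76 genes had that same set of libraries, among them CSNK1D, GFOD1 and HNRNPLL, each with 1 H3K27ac peak as at RBPJ. Neighbouring genes can share a peak, so the 76 are not separate sites.

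NRARP had a call in all 8 libraries, which 0.304% of protein-coding genes did. The site spans 137328160 to 137328582, lies 26.0 kb upstream of NRARP and within EXD3, the neighbouring gene. Fold enrichment was 3.62 in C12, 3.74 in C15, 5.18 in S04 and 6.12 in S36, and 4.76 in WT10, 4.49 in WT13, 7.11 in WT28 and 8.45 in WT30. The ranges of the genotypes overlapped, and the peak number was 1 in each library (difference 0, two-sided exact permutation p = 1, n = 4 each). These enrichments come from separate peak calls and were not tested against each other. Since the 4 knockout clones have the call as well, the site does not separate the genotypes, and its calls lay 461904 to 462005 bases from the nearest H3K27ac peak.

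At NOTCH1 a call was made in knockout clone S36 only (136530046 to 136530250, 205 bp, 5.03-fold, -log10 q 4.51, rank 716 of 934 in its library). C12, C15, S04 and the 4 WT clones had none, and the nearest calls of these 7 libraries lay 798.0 kb away. The mean number of peaks was 0.25 in knockout and 0 in WT libraries (difference 0.25, two-sided exact permutation p = 1, n = 4 each; 1 after adjustment), and without S36 the difference was 0. A call in S36 alone was found for 1.59% of protein-coding genes. Outside the windows of the 10 genes, 316 genes had this pattern, among them ARRB1 with 20 H3K27ac peaks and LIMS2 and MYO7B with 18 each. Windows of neighbouring genes overlap, so a peak can count for several genes, and these genes are not separate instances.

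The S36 peak lay in the gap of 251 bases between the 2 strongest in-gene H3K27ac peaks of NOTCH1, with 2 bases to one and 44 to the other. S36 had 232 peaks that no other library shared, of which 29 (12.5%) lay within 100 bp of an H3K27ac peak, whereas C12, C15 and S04 had 20, 26 and 37 such peaks with 0 near H3K27ac. WT10 had 215, of which 47 (21.9%) lay that close. WT13, WT28 and WT30 had 20, 54 and 37, of which 0, 3 and 1 lay that close. The part of this library property in the NOTCH1 call was not tested.

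**Figure D5:**
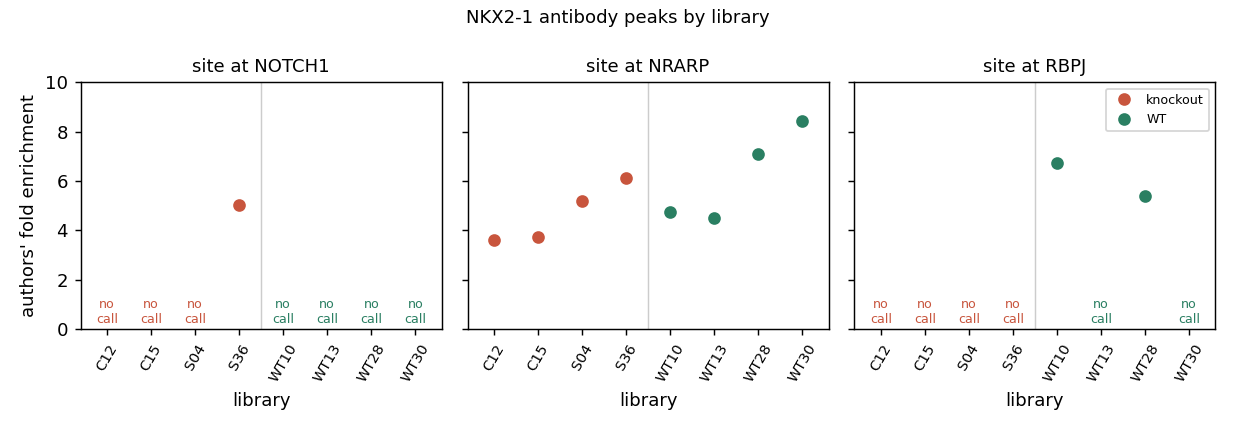
Authors' fold enrichment (y axis) of the NKX2-1 antibody peak in each library (x axis), knockout in red and WT in green, at the sites of NOTCH1, NRARP and RBPJ. NRARP has values in all 8 libraries (3.62 to 8.45), RBPJ in WT10 and WT28 only, and NOTCH1 in S36 only.

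Around the other genes the NKX2-1 antibody peaks were far off. The nearest call of any library to HES1 was 165.0 kb away in WT10, to NOTCH3 266.0 kb in WT10 and S36, to HES4 364.0 kb in all 8 libraries and to DTX1 429.0 kb in S36. FBXW7 had its nearest at 686.0 kb in S36, SHQ1 at 1280.0 kb in WT10 and TRIB2 at 1600.0 kb in all 4 knockout clones. The sites next to HES4 and TRIB2 were thus called in several knockout clones, and apart from RBPJ the nearest combined-list peak to any of the 10 genes was 235.0 kb from HES4.

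In a wider list of 62 pathway genes, 38 (61.3%) had an H3K27ac peak in the window, against 44.8% of all protein-coding genes, with a median of 1 peak against 0. Within 1 kb of a start 20 (32.3%) had one, against 19.5%. The categories are small, and several of their shares lie near or below these backgrounds. Corepressors, which hold RBPJ targets silent without NOTCH, had peaks at 8 of 10 genes and at 6 of 10 starts. Glycosyltransferases that modify the receptors had peaks in the windows of 5 of 5 genes, receptor-processing enzymes 6 of 9, T-cell targets 7 of 11, coactivators 4 of 8 and degradation or endocytosis factors 5 of 12. In the same order, 2 of 5, 3 of 9, 3 of 11, 3 of 8 and 3 of 12 had a peak within 1 kb of a start. Ligands had peaks at 2 of 5, DLL1 and DLL4, and at 0 of 5 starts. Of the receptors NOTCH2 and NOTCH4, NOTCH4 had 5 peaks and NOTCH2 had 0. DLL1, DLL4, NOTCH2 and NOTCH4 were named after their values were seen.

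The most H3K27ac peaks in this list lay in the window of the cell cycle gene CCND3, with 18 (up to 11.8-fold). CTBP1, a corepressor, had 8, IGF1R, a growth factor receptor gene and T-ALL target, 7, and HDAC1, a histone deacetylase, 6. CCND3 and CTBP1 had a peak within 1 kb of a start, and IGF1R and HDAC1 did not. Windows can also hold peaks of neighbouring genes. None of these genes had as many peaks as NOTCH1.

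NKX2-1 antibody peaks were called in the windows of 4 of the 62 genes (6.45%), close to the 5.61% of all protein-coding genes. Knockout clone S36 alone had a peak in the window of HDAC1 (32248531 to 32248801, 6.69-fold), 43281 bases from the gene. S36 alone also had a peak in the window of APH1A, a gamma-secretase subunit (150221498 to 150221717, 7.74-fold), 43686 bases from that gene. Both peaks lie on chromosome 1. WT10 alone had them at CCND3 (chromosome 6, 42017025 to 42017366 at 4.46-fold and 42045756 to 42046118 at 5.6-fold). APH1A was named after its values were seen. Each of these 3 genes rested on 1 library. Their two-sided exact permutation p of 1 (n = 4 each) is fixed when only 1 library has calls, so it decides nothing. CCND3 was the one gene of this list with a combined-list peak (42045740 to 42045957, 3.53-fold), 3452 bases from the nearest H3K27ac peak. The WT10 calls in CCND3 lay 88 and 3468 bases from the nearest H3K27ac peak, in the order given.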

How the data were processed

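ChIP-seq peak lists of 9 RPMI-8402 samples, a combined list and a WT-only list were used. Per the submitters' processing notes the tools were FastQC, Bowtie2, SAMtools, MACS2 and deepTools with build hg38; no versions, parameters or controls of peak calling could be taken from the labels. The deposited peak lists give, per peak, a fold enrichment (a ratio over the caller's background) and the −log10 of a q-value, both the authors' values, and served here for description, ranking and filters inside each list. A fold change between genotypes was not computed. Coordinates are 1-based.

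Peaks overlapping a gene body or its 50 kb flanks by 1 bp or more were counted for 20037 protein-coding genes (RefSeq GRCh38.p14). Peak numbers per library were compared by a two-sided exact permutation test over 70 assignments of the 8 libraries, with Benjamini-Hochberg adjustment over 1124 genes with a peak; Fisher's exact test, other windows, summits, stricter peaks and leaving out each library were alternatives. The counter was checked against a direct count on a sample of genes with the real peak lists, and the permutation test on simulated peak numbers. The genes and lists were chosen with earlier results of these data known; the wider list named its 5 genes with most H3K27ac peaks and those with combined-list or repeated one-genotype calls, of which 1 is not reported here. CIR1 was matched as CIRSR. H3K27ac peaks were joined into clusters where 12.5 kb or less apart. Exonic or intronic position was not determined. Python 3.11.15, numpy 2.4.6, pandas 2.3.3, scipy 1.17.1 and matplotlib 3.10.9 were used.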

Additional observations from a re-analysis of the deposited data

Results flagged for a closer look

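A single clone stood apart from the other 3 of its genotype at 5 genes, of which 4 are given here. In the windows of NOTCH1, HDAC1 and APH1A, S36 had 1 NKX2-1 antibody peak and the other knockout clones 0. At CCND3 WT10 had 2 peaks and the other WT clones 0. These are 5 of 32 groups of 4 libraries examined. Chance marks about 1 in 20 groups of continuous values, but with whole peak numbers a lone call among 4 is always marked, so the 5 cannot be set against that rate.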

How the results depend on the processing

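No paired analysis was possible because the clones carry no shared numbers. The 31 H3K27ac peaks became 15 with gene bodies alone, 57 with 100 kb flanks (chosen after seeing the data) and 1, at HES4, at a −log10 q of 10 or more, which 12.2% of H3K27ac peaks reach; NOTCH1 then kept 0, its highest value being 9.18. The 5 genes with a peak at the start became 1 at that threshold and 1 when the peak had to cover the start. The NOTCH1 difference, knockout minus WT, was 0 at that threshold and with each library limited to its strongest 500 peaks, and ranged from 0 (without S36) to 0.333 when each library was left out. The NRARP difference of 0 became -0.25 at that threshold and -0.5 among the strongest 500. The RBPJ difference ranged from -0.667 to -0.333 with a library left out and was -0.25 in both stricter settings and with 100 kb flanks. Genes with an unadjusted p under 0.05 numbered 7 with 10 kb flanks and 5 at the stricter threshold, against 24, and 24 to 60 with a library left out (60 without WT13, 37 without C15). Adjustment could hardly be passed with so few clones, so the adjusted counts of 0 show no stability. Stricter thresholds and shorter flanks keep fewer peaks; the cause of the other shifts was not tested. The combined-list and WT-only counts of 1 did not move. Depth is unknown, so genes without a call cannot be told from genes called too weakly.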

Other observations

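H3K27ac upstream of NOTCH1 went on past the 50 kb limit. Peaks no more than 12.5 kb apart were joined, and 2 of the resulting clusters reached into the NOTCH1 window. The one at the gene had 15 peaks over 35.1 kb (136529022 to 136564155), and 22 of 5140 clusters in the genome had as many or more. The other, from 38.2 to 79.8 kb upstream of the start (136584275 to 136625885), had 23 peaks over 41.6 kb, and 3 of 5140 had as many or more. In all, 32 H3K27ac peaks lay between NOTCH1 and EGFL7, the next protein-coding gene, 113.0 kb away, and 21 of them lay beyond the 50 kb limit, at 4.9- to 9.61-fold. Which gene these peaks act on is not known from peak lists. No NKX2-1 antibody library and neither list had a peak in this stretch.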
